A study of Mus musculus with 180 samples.

Results

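Genes that write, read or remodel chromatin were followed in ribosome-associated and total RNA of the mouse hippocampus. The members were chosen by symbol: every gene whose name begins with Hdac, Kat, Kdm or Chd and a digit, Kmt2, Smarc with a letter from a to e, Arid with a digit from 1 to 5, or Setd and a digit, without symbols ending in os or -ps. The pattern matched 90 symbols, 3 were left out by their endings (Kat2b-ps, Kdm6bos and Smarca5-ps), and 87 of 54429 genes remained. The rule uses no measured value. By name the members are 11 histone deacetylases, 10 lysine acetyltransferases, 5 Kmt2 and 8 Setd methyltransferases, 19 histone demethylases, 10 Chd remodelers, 14 Smarc subunits and 10 Arid subunits. After removal of genes with few counts, 82 members were tested in each of the 6 library types. The other 5, Arid3c, Kdm4dl, Kat6b-ps1, Kat6b-ps2 and Smarce1-ps1, had counts too low to test in every type. The last 3 are annotated pseudogenes whose numbered names the pattern lets through.

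The samples came from 30 male mice, with 6 libraries each. Training was contextual fear conditioning (CFC) or none (NoCFC), and it was followed by sleep deprivation (SD) or undisturbed sleep (Sleep). The groups held 7 CFC SD, 8 CFC Sleep, 7 NoCFC SD and 8 NoCFC Sleep mice. All groups carried the same alleles: a Camk2a-cre transgene (T29-1Stl) crossed to Rpl22tm1.1Psam, in which Cre gives the ribosomal protein Rpl22 an HA tag. The tag is therefore limited to neurons in which the Camk2a promoter drives Cre, mostly excitatory ones, while the other capture used an antibody to phosphorylated S6 (pS6), a ribosomal mark of active neurons that is not limited to one cell type. Each homogenate gave a membrane-bound pellet and a cytosolic supernatant, and each was split into a pS6 capture, a Camk2a (HA) capture and an Input of total RNA. The mice's ages and the length of deprivation are not given in the sources used here. Title numbers fall into runs that hold unlike mixes of groups: the first, mice 1 to 11, had no CFC animals, the next, mice 12 to 22, had CFC animals throughout, and the last, mice 23 to 30, drew 2 animals from every group. Within mice 1 to 22, training and number run cannot be told apart.

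Acetyl groups on histone tails loosen chromatin and are placed by lysine acetyltransferases (Kat genes) and removed by histone deacetylases (Hdac genes). Methyl groups are placed on histone lysines by Kmt2 and Setd enzymes and removed by Kdm enzymes, and they mark promoters, enhancers and silent regions. Chd and Smarc ATPases slide or evict nucleosomes, and some of the DNA-binding Arid proteins are subunits of the same machines. In the hippocampus, class I deacetylases and the BAF complex are known for their part in memory, and mutations of many of these genes cause intellectual disability or autism.

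The promoters of the 3 members that changed with sleep deprivation in the most library types are shown first. The RefSeq promoter table (GRCm38.p6) gives 250 bases before to 50 after each start and had entries for 63 of the 87 members. All 3 genes lie on the minus strand. Capitals mark CCAAT and TGACG, the only searched motifs found in them.

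Hdac4 (chr1:92180292-92180591, minus strand): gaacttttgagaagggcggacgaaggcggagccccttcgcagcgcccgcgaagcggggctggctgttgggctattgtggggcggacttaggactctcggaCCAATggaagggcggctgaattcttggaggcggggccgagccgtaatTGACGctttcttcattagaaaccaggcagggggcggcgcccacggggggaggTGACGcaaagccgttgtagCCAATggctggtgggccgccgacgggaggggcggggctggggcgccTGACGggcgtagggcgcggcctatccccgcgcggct

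Kdm7a (chr6:39206724-39207023, minus strand): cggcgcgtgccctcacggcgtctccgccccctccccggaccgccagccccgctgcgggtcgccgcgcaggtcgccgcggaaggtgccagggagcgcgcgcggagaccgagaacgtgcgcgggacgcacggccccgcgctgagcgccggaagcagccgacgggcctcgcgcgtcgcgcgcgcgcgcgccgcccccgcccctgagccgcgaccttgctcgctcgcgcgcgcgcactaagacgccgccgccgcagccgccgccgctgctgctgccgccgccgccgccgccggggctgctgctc

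Smarcd2 (chr11:106267583-106267882, minus strand): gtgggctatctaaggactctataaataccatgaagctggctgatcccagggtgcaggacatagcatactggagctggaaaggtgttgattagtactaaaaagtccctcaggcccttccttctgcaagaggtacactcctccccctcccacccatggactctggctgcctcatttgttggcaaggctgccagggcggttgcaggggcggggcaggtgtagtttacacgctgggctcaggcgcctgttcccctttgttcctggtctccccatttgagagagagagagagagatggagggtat

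The Hdac4 window held TGACG 3 times, at bases -103, -51 and 15 from the RefSeq start, and CCAAT 2 times, at bases -150 and -32. The Kdm7a and Smarcd2 windows held none of the motifs searched, which were TGACGTCA (the full cyclic AMP response element), TGACG (contained in it), TGANTCA (the site of Fos and Jun), CACGTG (an E-box) and CCAAT (the site of NF-Y), on both strands. Of 32851 promoters in the table, 20.8% held TGACG, 1.03% held it 3 times or more, and 37.4% held CCAAT; of the 84 promoters of members, 28 (33.3%) and 31 (36.9%) held TGACG and CCAAT. TGACGTCA occurred in 0 of the members' promoters and in 1.79% of all promoters. GC content was 68.0% for Hdac4, 82.7% for Kdm7a and 55.0% for Smarcd2. The RefSeq starts of Hdac4 and Smarcd2 lie 15358 and 5340 bases inside the GENCODE extent of each gene, so these windows are not the 5'-most annotated starts, whereas that of Kdm7a lies 16 bases from it.

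Total counts were 12 to 27 M (mega-counts) per library. Levels are given in CPM, counts scaled to a common library size, and levels of different genes are compared per kilobase of exons. Medians printed with ranges are over all mice of a condition. Counts of SD libraries above the Sleep median used instead the median of Sleep mice with the same training. Counts of CFC libraries below the NoCFC median used that of NoCFC mice with the same sleep treatment. A log2 fold change is given with its standard error, in parentheses together with its adjusted p, and a gene was called changed at an adjusted p under 0.05 in edgeR's quasi-likelihood test with Benjamini-Hochberg adjustment over all genes tested. Excitatory neuron markers summed to a median of 10298 CPM in the pS6 membrane, 9753 CPM in the pS6 cytosolic, 14121 CPM in the Camk2a membrane, 11854 CPM in the Camk2a cytosolic, 8633 CPM in the Input membrane and 7334 CPM in the Input cytosolic libraries. No marker of any neuronal or glial list was at 0, and the 10 astrocyte markers summed to a median of 5382, 645, 2728, 273, 7405 and 1495 CPM in the same order. The astrocyte medians were lower in the captures than in the Input of the same fraction, but single pS6 libraries reached 13910 CPM in the membrane and 2035 CPM in the cytosolic fraction, above the Input maxima of 8782 and 1649 CPM. Of the members, 34 overlap exons of another gene, 9 of them on the same strand; whether reads were counted by strand is not given, so such reads cannot be told apart. In all comparisons of these tissue samples, fewer cells of a type and less RNA per cell cannot be told apart. In 5 of the 180 libraries the correlation with the median profile of their type stood over 0.01 below that type's median: pS6 membrane of CFC SD mouse 19, Input cytosolic of NoCFC Sleep mouse 6, and Input membrane of CFC Sleep mouse 16 and CFC SD mice 22 and 30. Counts of members called with training in the pS6 and Input membrane libraries are also given without them, as are other results where stated. Values otherwise include them, and the Input membrane ones are all from CFC mice.

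The members were expressed in every library type, at levels that differed widely between genes. Per kilobase, the median member had 3.03 CPM in the pS6 membrane, 2.94 CPM in the pS6 cytosolic, 4.36 CPM in the Camk2a membrane, 4.23 CPM in the Camk2a cytosolic, 3.64 CPM in the Input membrane and 3.33 CPM in the Input cytosolic libraries. In the Camk2a cytosolic libraries the highest level per kilobase belonged to Smarcc2, a core scaffold of the BAF remodeling complex, with 50.4 ± 3.59 CPM per kilobase (mean ± standard deviation, n = 30). It was followed by the class I deacetylase Hdac2 with 46.8 ± 2.92 and by Kat2a, the acetyltransferase of the SAGA complex, with 44.9 ± 3.07, and the spreads of these neighbours touched. Chd3, an ATPase of the NuRD repressor complex, led in the Camk2a membrane libraries with 58.6 ± 5.5 CPM per kilobase, and in the pS6 membrane libraries with 58.2 ± 5.64. At the low end of the tested members stood Arid3b, a DNA-binding Arid protein, with 0.324 ± 0.0635 CPM per kilobase in the Camk2a cytosolic libraries. In that type the other groups were led by Setd3, a methyltransferase of actin (33.3), Kdm4b, a demethylase of histone H3 lysine 9 (29.2), Kmt2e, a Kmt2 family protein (13.3), and Arid4a, a subunit of the Sin3 deacetylase complex (10.7 CPM per kilobase).

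The group sums moved with the library type. The 10 Chd remodelers summed to 974.3 to 1403 CPM (median 1146) in the 30 Camk2a membrane libraries, against 574.5 to 690.8 CPM (median 625.5) in the 30 Camk2a cytosolic ones, without overlap. The 11 deacetylases went the other way, with 504.8 to 644.9 CPM (median 568.4) in the Camk2a membrane against 773.2 to 874.8 CPM (median 829.5) in the Camk2a cytosolic libraries, again without overlap. Of the 82 tested members, 26 had their highest mean level in the Camk2a membrane and 35 in the Camk2a cytosolic libraries, 0 in the pS6 membrane and 10 in the pS6 cytosolic libraries, and 9 in the Input membrane and 2 in the Input cytosolic libraries. The lowest mean fell in the pS6 membrane libraries for 19 members and in the pS6 cytosolic libraries for 34.

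A few members rose with sleep deprivation, and most did not pass the test. Hdac4, a class IIa deacetylase that shuttles between nucleus and cytoplasm, and Kdm7a, a demethylase of histone H3 lysines 9 and 27, rose in all 6 library types, and Smarcd2, a BAF subunit, rose in 4 of them. In the Camk2a cytosolic libraries 4 of 82 members (4.88%) were higher and 0 lower in the 14 SD mice than in the 16 Sleep mice, where 4.13% of all genes tested were higher and 2.15% lower. The counts were 3 and 0 in the Camk2a membrane libraries (2.16% and 0.802% of all genes), 6 and 1 in the pS6 cytosolic libraries (4.60% and 3.28%), 2 and 1 in the pS6 membrane libraries (1.11% and 0.619%), 4 and 0 in the Input cytosolic libraries (2.04% and 1.13%), and 3 and 0 in the Input membrane libraries (1.05% and 0.320%). Of the members, 2.44% to 7.32% were higher and 0 to 1.22% lower in the 6 types, and nothing particular to the members is read from these shares. The members' median log2 fold change lay between -0.04 and 0.02 in the 6 types, against 0.00 for all genes. DESeq2 called these members too and added a few: its splits were 4 higher and 2 lower in the Camk2a cytosolic, 4 and 1 in the Camk2a membrane, 6 and 2 in the pS6 cytosolic, 2 and 2 in the pS6 membrane, 5 and 1 in the Input cytosolic and 3 and 0 in the Input membrane libraries.

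Hdac4 (chr1:91928779-92195699, minus strand, GRCm38) had the clearest change. In the Camk2a cytosolic libraries it lay at 97.8 to 123 CPM (median 112) in SD mice, against 71.5 to 95.8 CPM (median 84) in Sleep mice. Every SD library was above every Sleep library, and the log2 fold change was 0.41 ± 0.04, adjusted p = 1.17e-08. In the Camk2a membrane libraries it lay at 119 to 144 CPM (median 129.8) in SD mice and at 83.9 to 123 CPM (median 99.9) in Sleep mice, with 12 of 14 SD libraries above all Sleep libraries (0.36 ± 0.04, adjusted p = 1.67e-06). The pS6 cytosolic libraries held 76.6 to 92.9 CPM (median 88.1) in SD mice and 59.9 to 77.2 CPM (median 65.5) in Sleep mice, with 13 of 14 SD libraries above all Sleep libraries (0.37 ± 0.04, adjusted p = 7.03e-09). In the pS6 membrane libraries the ranges overlapped more, with 86.4 to 129 CPM (median 108) in SD mice against 67.9 to 108 CPM (median 92.1) in Sleep mice (0.21 ± 0.06, adjusted p = 0.0428). Total RNA moved too. The Input cytosolic libraries held 74.4 to 100.1 CPM (median 88.8) in SD mice and 57.8 to 80.7 CPM (median 64.8) in Sleep mice (0.38 ± 0.05, adjusted p = 1.44e-06), and the Input membrane libraries 78.1 to 97.5 CPM (median 85) in SD mice and 66.5 to 83.7 CPM (median 76.4) in Sleep mice (0.20 ± 0.04, adjusted p = 0.00614). The antisense gene Gm26720 overlaps Hdac4, and their reads cannot be told apart. Of the other class IIa deacetylases, Hdac5 and Hdac7 did not pass the test with sleep deprivation in any type.

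**Figure D1:**
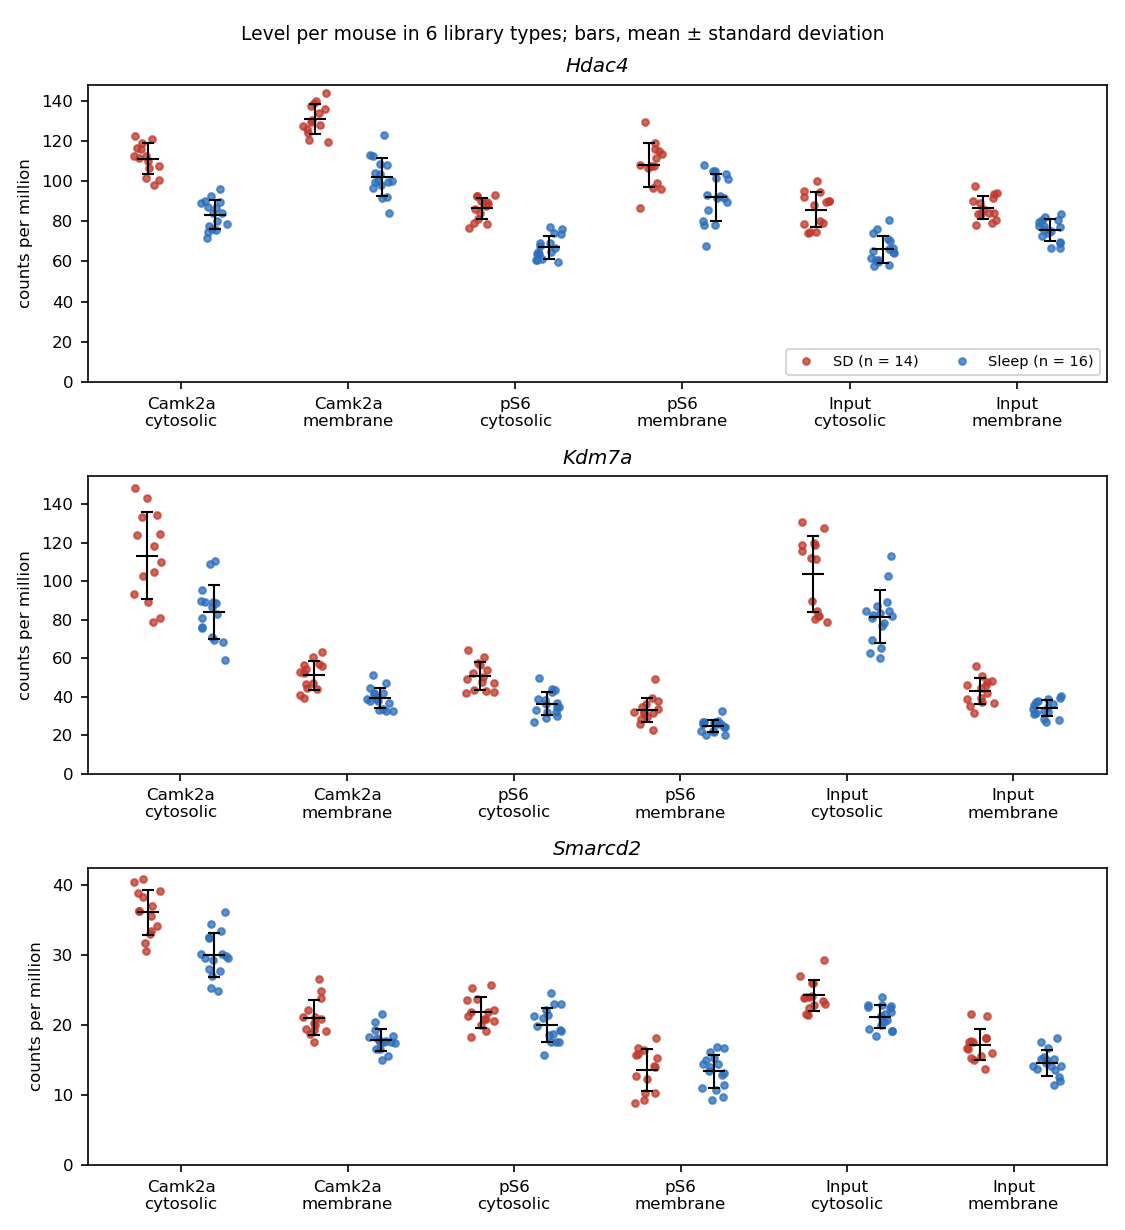
Levels of Hdac4, Kdm7a and Smarcd2 (vertical axis, CPM) in each library of SD mice (left of each pair, n = 14) and Sleep mice (right, n = 16) for the 6 library types; points are mice and bars the mean ± standard deviation. The Hdac4 points of SD and Sleep mice do not overlap in the Camk2a cytosolic libraries and overlap in the other types.

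Kdm7a (chr6:39136623-39206789, minus strand) rose in all types too, with wider ranges. In the Camk2a cytosolic libraries it lay at 79.1 to 148 CPM (median 114) in SD mice and at 59 to 111 CPM (median 84.8) in Sleep mice (0.43 ± 0.08, adjusted p = 0.00106), and 7 of 14 SD libraries exceeded all Sleep libraries. The pS6 cytosolic libraries showed its largest fold change, with 42 to 64.2 CPM (median 49.7) in SD mice against 26.6 to 49.7 CPM (median 35.5) in Sleep mice (0.49 ± 0.07, adjusted p = 6.12e-06). All 14 SD libraries lay above the Sleep median of their training group there. In the pS6 membrane libraries it lay at 22.4 to 49 CPM (median 32) in SD mice and at 19.9 to 32.5 CPM (median 25.7) in Sleep mice (0.39 ± 0.08, adjusted p = 0.00543). The Camk2a membrane libraries held 39.5 to 63.4 CPM (median 52.4) in SD mice and 32.4 to 51.1 CPM (median 38.8) in Sleep mice (0.38 ± 0.07, adjusted p = 0.000418). For total RNA the levels were 31.6 to 56 CPM (median 43.2) in SD mice and 27 to 40.1 CPM (median 34.2) in Sleep mice of the Input membrane libraries (0.33 ± 0.07, adjusted p = 0.00471), and 78.7 to 131 CPM (median 112) in SD mice and 60 to 113 CPM (median 82.2) in Sleep mice of the Input cytosolic libraries (0.36 ± 0.08, adjusted p = 0.00779). In these 4 types 13 of 14 SD libraries lay above the Sleep median. The antisense gene 4930599N23Rik overlaps Kdm7a.

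Smarcd2 (chr11:106263179-106272972, minus strand) was called in both Camk2a and both Input types. In the Camk2a cytosolic libraries it lay at 30.6 to 40.9 CPM (median 36.4) in SD mice and at 25 to 36.1 CPM (median 29.8) in Sleep mice (0.26 ± 0.05, adjusted p = 0.000827). The groups overlapped, with 8 of 14 SD libraries above all Sleep libraries. The Camk2a membrane libraries held 17.6 to 26.6 CPM (median 20.6) in SD mice and 15 to 21.6 CPM (median 17.7) in Sleep mice (0.24 ± 0.06, adjusted p = 0.0122). In the Input cytosolic libraries the levels were 21.4 to 29.3 CPM (median 24) in SD mice and 18.4 to 24.1 CPM (median 21.5) in Sleep mice (0.20 ± 0.05, adjusted p = 0.00798), and in the Input membrane libraries 13.8 to 21.7 CPM (median 17.1) in SD mice and 11.4 to 18.1 CPM (median 14.4) in Sleep mice (0.24 ± 0.06, adjusted p = 0.0298). The last call was lost without the 3 Input membrane libraries that stand apart (adjusted p = 0.0672). In the pS6 captures Smarcd2 did not pass the test, with log2 fold changes of -0.0046 ± 0.11 in the membrane and 0.12 ± 0.06 in the cytosolic libraries. Its paralogs Smarcd1 and Smarcd3, the alternative subunits of the same position in BAF, passed in 0 of 6 types in edgeR; DESeq2 called Smarcd1 lower in the Camk2a membrane libraries, at a log2 fold change of -0.13 (adjusted p = 0.0306).

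Other members were called in 1 library type each. Arid4a lay at 58.2 to 75.4 CPM (median 62.9) in SD mice and at 51 to 63 CPM (median 57.3) in Sleep mice of the Camk2a cytosolic libraries (0.17 ± 0.04, adjusted p = 0.00263), and all 14 SD libraries were above the Sleep median. Arid5b, a partner of a histone demethylase, lay at 21.9 to 32.9 CPM (median 26) in SD mice and at 21.4 to 27.7 CPM (median 23.3) in Sleep mice of the Input cytosolic libraries (0.15 ± 0.04, adjusted p = 0.03), and this call was lost without the filter on low counts. Most such calls came from the pS6 cytosolic libraries. There Hdac9, a class IIa deacetylase like Hdac4, lay at 37.9 to 52.9 CPM (median 46.7) in SD mice and at 36 to 45.1 CPM (median 40.8) in Sleep mice (0.19 ± 0.04, adjusted p = 0.002), with 9 of 14 SD libraries above all Sleep libraries. Arid5a, which also binds and stabilises cytokine mRNAs, lay at 11.6 to 21.8 CPM (median 14.6) in SD mice and at 8.65 to 16.9 CPM (median 11.8) in Sleep mice (0.35 ± 0.09, adjusted p = 0.00954). For both genes 13 of 14 SD libraries lay above the Sleep median. Setd7, a lysine methyltransferase, lay at 31.6 to 41.2 CPM (median 35.2) in SD mice and at 27 to 36.2 CPM (median 32.4) in Sleep mice (0.17 ± 0.05, adjusted p = 0.015). Kdm6b, a demethylase of histone H3 lysine 27 that many stimuli induce, ranked below the 5 higher members by adjusted p whose values are given by rule, and its values are given after they were seen. It lay at 6.84 to 9.41 CPM (median 8.78) in SD mice and at 5.11 to 8.69 CPM (median 7.41) in Sleep mice (0.22 ± 0.07, adjusted p = 0.0475), and its call was lost with relative log expression size factors (adjusted p = 0.0535) and without the count filter. The antisense genes 5031434O11Rik and Kdm6bos overlap Setd7 and Kdm6b.

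Falls were rare. Hdac10, a deacetylase of polyamines, lay at 4.45 to 7.56 CPM (median 4.97) in SD mice and at 5.09 to 9.96 CPM (median 6.66) in Sleep mice of the pS6 cytosolic libraries (-0.34 ± 0.09, adjusted p = 0.0179), and 1 of 14 SD libraries was above the Sleep median. In the pS6 membrane libraries Chd3 lay at 413 to 547 CPM (median 473) in SD mice and at 445 to 576 CPM (median 516) in Sleep mice (-0.16 ± 0.04, adjusted p = 0.0465). The Chd3 call was lost without the pS6 membrane library of CFC SD mouse 19 (adjusted p = 0.101), with relative log expression size factors (0.0505) and without the count filter.

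Markers of other cells moved with sleep deprivation in the pS6 captures. In the pS6 cytosolic libraries 9 of 16 inhibitory neuron markers were higher in SD mice (median log2 fold change 0.27), and their sum was 1481 to 1900 CPM (median 1626) in SD mice against 1344 to 1749 CPM (median 1523) in Sleep mice. Of the 11 excitatory markers 1 was higher and 3 were lower there, and of the 10 astrocyte markers 1 was higher, with a median of 0.35. In the pS6 membrane libraries 4 inhibitory markers were higher and 4 excitatory markers lower. In the Camk2a and Input libraries of both fractions, no inhibitory or excitatory marker was called with sleep deprivation. The part of marker shifts in the results for the members was not tested in any type.

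**Figure D2:**
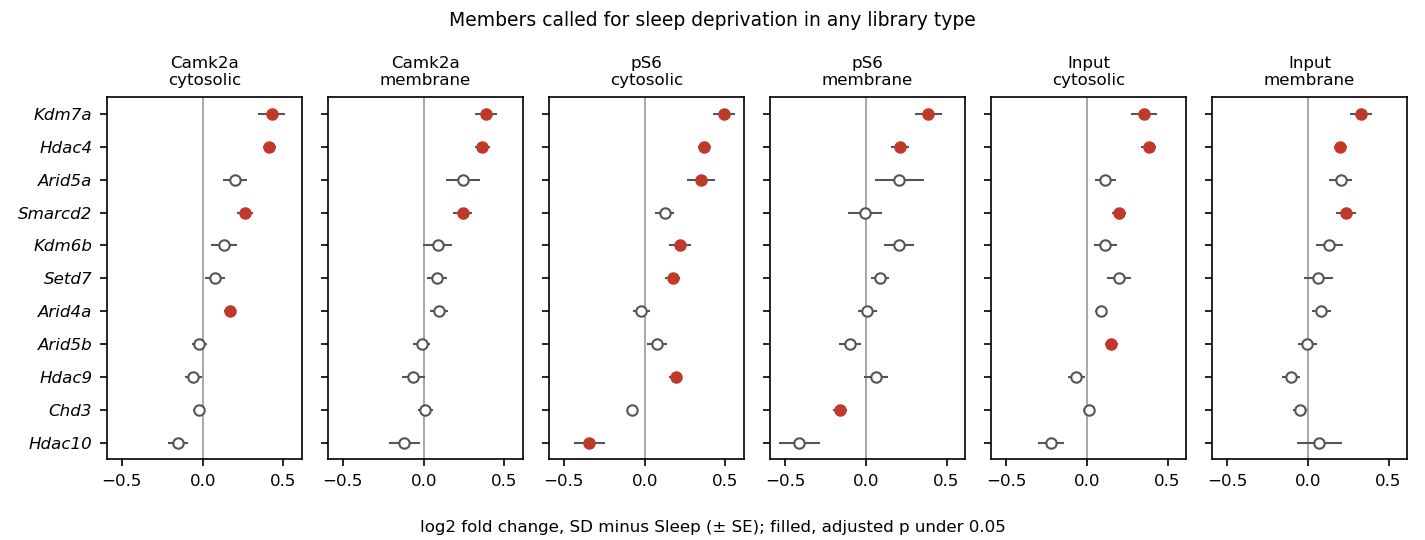
Log2 fold change, SD minus Sleep, with its standard error for the members called in at least 1 library type (one under another), in each of the 6 library types; filled points passed an adjusted p under 0.05. Hdac4 and Kdm7a are filled in all 6 types and Smarcd2 in 4.

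The direction of the called members was also read within the title number runs. The mice of these runs are those that made the calls, so agreement in sign is partly built in. Each of the 4, 3, 7, 3, 4 and 3 members called in the Camk2a cytosolic, Camk2a membrane, pS6 cytosolic, pS6 membrane, Input cytosolic and Input membrane libraries had the same sign in mice 1 to 11, 12 to 22 and 23 to 30, fitted apart. The sleep effect was also asked for separately by training: the interaction of sleep deprivation and training was called for 0 of 82 members in every type (0% of all genes tested, edgeR), with 0 to 7 members at an unadjusted p under 0.05, and DESeq2 called 0 members as well.

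Many members were lower in trained mice in the membrane libraries, and none was called by edgeR in the cytosolic ones; the difference between the fractions was not tested. In the 15 CFC mice against the 15 NoCFC mice, 0 members were higher and 19 of 82 (23.2%) lower in the Camk2a membrane libraries, 0 and 26 (31.7%) in the pS6 membrane libraries, and 0 and 10 (12.2%) in the Input membrane libraries. Of all genes tested, 9.81% were higher and 7.17% lower in the Camk2a membrane, 8.10% and 8.75% in the pS6 membrane, and 3.63% and 2.90% in the Input membrane libraries. The share of lower members was thus above that of all genes in each, while higher calls, frequent over all genes, were absent among the members. The members' median log2 fold change was -0.09, -0.16 and -0.09 in these types, against -0.01, 0.00 and 0.00 over all genes. In the same order, Spearman's rho with exonic length was -0.31, -0.27 and -0.29 across the members and -0.02, -0.24 and -0.19 across protein-coding genes. Protein-coding genes with 7.04, 6.94 and 6.96 kilobases of exons or more had medians of -0.02, -0.08 and -0.03. Members of that length had medians of -0.12, -0.18 and -0.11. The part of length in the members' lower levels was not tested. In the cytosolic libraries edgeR called 0 members, with 12 at an unadjusted p under 0.05 in the Camk2a, 5 in the pS6 and 12 in the Input libraries, where 0.148%, 0.133% and 0.219% of all genes were called. DESeq2 called 1, 0 and 1 members there. With the number run as a term in the fit, the training contrast rested on mice 23 to 30, since mice 1 to 22 do not separate training from run. A loss of calls from fewer mice and one from the run term cannot be told apart. In that fit 0 members were called in any membrane type. Over all genes 1 of 14968, 12 of 16637 and 0 of 15642 were then called in the Camk2a, pS6 and Input membrane libraries.

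Of the 10 Chd remodelers, 5 were lower in the Camk2a membrane, 7 in the pS6 membrane and 4 in the Input membrane libraries, and Chd3, Chd5 and Chd6 were lower in all 3. Chd6, an ATPase of the Chd6 to Chd9 branch, lay at 26.5 to 47.2 CPM (median 35.6) in CFC mice and at 34.5 to 69.7 CPM (median 51.9) in NoCFC mice of the pS6 membrane libraries, the largest fall of a member (-0.64 ± 0.08, adjusted p = 5.54e-06). All 15 CFC libraries lay below the NoCFC median of their sleep group, though the ranges overlapped. In the Camk2a membrane libraries it lay at 55 to 85.8 CPM (median 71.8) in CFC mice and at 64 to 103 CPM (median 84.7) in NoCFC mice (-0.27 ± 0.06, adjusted p = 0.00336). In the Input membrane libraries it lay at 30.02 to 43 CPM (median 39) in CFC mice and at 38.1 to 54 CPM (median 41.8) in NoCFC mice (-0.20 ± 0.05, adjusted p = 0.0105). Chd5, the neuron-enriched NuRD ATPase, lay at 155 to 223 CPM (median 187) in CFC mice and at 170.1 to 252 CPM (median 218) in NoCFC mice of the Camk2a membrane libraries (-0.27 ± 0.05, adjusted p = 0.000909). For Chd5 in the pS6 membrane libraries the levels were 87 to 123 CPM (median 108) in CFC mice and 102 to 161 CPM (median 138) in NoCFC mice (-0.41 ± 0.06, adjusted p = 2.09e-05). Every one of the 15 CFC libraries was below the NoCFC median in that type and 14 of 15 in the Camk2a membrane libraries. Chd4, the main NuRD ATPase, was called in the pS6 membrane libraries, with 84.9 to 131 CPM (median 101) in CFC mice and 99 to 150.03 CPM (median 131) in NoCFC mice (-0.36 ± 0.06, adjusted p = 6.75e-05). Chd3 lay at 254 to 377.3 CPM (median 319.7) in CFC mice and at 324 to 370.4 CPM (median 338) in NoCFC mice of the Input membrane libraries (-0.18 ± 0.04, adjusted p = 0.00844).

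Among the methyltransferases, 4 of the 5 Kmt2 genes were lower in the pS6 membrane libraries, 1 in the Camk2a membrane and 1 in the Input membrane libraries. Kmt2b, which methylates histone H3 lysine 4, lay at 20.9 to 28.2 CPM (median 24.3) in CFC mice and at 23.5 to 34.2 CPM (median 26.5) in NoCFC mice of the Camk2a membrane libraries (-0.21 ± 0.05, adjusted p = 0.00573), with 12 of 15 CFC libraries below the NoCFC median. Kmt2a, the founding member of that family, lay at 62.7 to 94.3 CPM (median 83) in CFC mice and at 81.8 to 99.3 CPM (median 89.6) in NoCFC mice of the Input membrane libraries (-0.22 ± 0.05, adjusted p = 0.0122), and 14 of 15 CFC libraries were below the NoCFC median. Setd1b, the catalytic subunit of a COMPASS complex for the same lysine, was lower in all 3 membrane types. Its adjusted p was 0.0405 in the Camk2a and 0.0472 in the pS6 membrane libraries. With the number run as a term, its sign turned in the Camk2a membrane libraries. In the Input membrane libraries it lay at 7.6 to 17.9 CPM (median 13.9) in CFC mice and at 14.4 to 19 CPM (median 16.4) in NoCFC mice (-0.35 ± 0.09, adjusted p = 0.0131), and its log2 fold change was -0.21 without the 3 libraries that stand apart.

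The demethylases had 4, 3 and 1 of 18 lower members in the Camk2a, pS6 and Input membrane libraries. Kdm5b, which removes methyl groups from histone H3 lysine 4, lay at 38.8 to 62.9 CPM (median 48.6) in CFC mice and at 49.7 to 81.7 CPM (median 64.9) in NoCFC mice of the pS6 membrane libraries (-0.50 ± 0.07, adjusted p = 7.69e-06), and all 15 CFC libraries were below the NoCFC median. Its relative Kdm5a lay at 38.5 to 54.5 CPM (median 44.6) in CFC mice and at 38.4 to 61.1 CPM (median 52.9) in NoCFC mice of the Camk2a membrane libraries (-0.24 ± 0.06, adjusted p = 0.0049). Kdm6b lay at 4.51 to 8.7 CPM (median 6.19) in CFC mice and at 6.12 to 9.52 CPM (median 8.3) in NoCFC mice of the Input membrane libraries (-0.35 ± 0.08, adjusted p = 0.00765). In both of the last comparisons 14 of 15 CFC libraries lay below the NoCFC median, with overlapping ranges.

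The BAF ATPase Smarca4 was lower in all 3 membrane types. Its Input membrane call (-0.15 ± 0.04, adjusted p = 0.0267) was lost without the 3 libraries of that type that stand apart. In the pS6 membrane libraries Smarca4 lay at 81.5 to 112 CPM (median 95) in CFC mice and at 93.4 to 146 CPM (median 117) in NoCFC mice (-0.36 ± 0.06, adjusted p = 2.81e-05), with all 15 CFC libraries below the NoCFC median. Arid5b lay at 46.3 to 65.2 CPM (median 51.8) in CFC mice and at 49.6 to 70.1 CPM (median 60.7) in NoCFC mice of the Camk2a membrane libraries (-0.20 ± 0.05, adjusted p = 0.00674). Of the deacetylases, 1, 5 and 2 of 11 were lower in the Camk2a, pS6 and Input membrane libraries. Hdac7, a class IIa deacetylase known from endothelium, lay at 4.3 to 9.66 CPM (median 7.84) in CFC mice and at 7.47 to 13.5 CPM (median 9.34) in NoCFC mice of the Input membrane libraries (-0.47 ± 0.11, adjusted p = 0.00844). The ranges of these 3 genes overlapped between the groups. Of the acetyltransferases, 1, 0 and 0 of 8 were lower in those types, the 1 being Kat6b.

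Mice 23 to 30 cover every group and allow the training contrast within 1 run. The fit with the number run as a term takes its training contrast from the same mice, so that fit is not a separate check. Of the members called lower, 15 of 19 in the Camk2a membrane, 20 of 26 in the pS6 membrane and 9 of 10 in the Input membrane libraries were also below 0 in these 8 mice. Over all 82 tested members, 57, 60 and 55 were below 0 there. These 8 mice are among the 30 that made the calls, so agreement in sign is partly built in. The median over those members was -0.08 in mice 23 to 30, against -0.21 in all 30 mice, in the Camk2a membrane libraries. In the pS6 membrane libraries it was -0.12 in mice 23 to 30 and -0.28 in all 30 mice, and in the Input membrane libraries -0.21 in both. With 4 mice a side, 0 members were called by edgeR in any type, with 2, 6 and 6 at an unadjusted p under 0.05 in the Camk2a, pS6 and Input membrane libraries. DESeq2 was not run on these 8 mice.

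Some glial and blood markers were higher in CFC mice. In the Camk2a membrane libraries 5 of 10 astrocyte markers and 6 of 10 microglia markers were higher in CFC mice, with medians of 0.36 and 0.35. The astrocyte sum was 1979 to 4340 CPM (median 3221) in CFC mice against 2118 to 3189 CPM (median 2558) in NoCFC mice, and the microglia sum was 212 to 494 CPM (median 314) in CFC mice against 191 to 298 CPM (median 257) in NoCFC mice. In the pS6 membrane libraries 4 of 5 blood markers were higher (median 0.51), with sums of 544 to 1343 CPM (median 980) in CFC mice against 349 to 1095 CPM (median 676) in NoCFC mice. In that type 1 astrocyte and 2 microglia markers were higher. Oligodendrocyte markers did not move one way: of 10, 3 were higher and 0 lower in the Camk2a membrane, and 0 higher and 2 lower in both the pS6 membrane and the Input membrane libraries. In the Input membrane libraries 4 of 10 microglia markers were higher, and 2 astrocyte markers were higher and 1 lower. The part of these shifts in the members' lower levels was not tested. Without the library of CFC SD mouse 19, 22 members were lower in the pS6 membrane libraries, all among the 26. Without the 3 Input membrane libraries that stand apart, all from CFC mice, 9 members were lower, 8 of them among the 10. Chd7 and Smarca4 were lost and Kmt2e was gained.

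Number runs were compared directly as well. In mice 23 to 30 against mice 1 to 22, 1 member was higher and 4 lower in the Camk2a membrane libraries (1.06% and 1.70% of all genes), 0 and 3 in the pS6 cytosolic libraries (0.0485% and 0.837%), and 0 in the Camk2a cytosolic, pS6 membrane, Input cytosolic and Input membrane libraries (0.00674%, 0.571%, 0% and 0.0128% of all genes, with 5 to 16 members at an unadjusted p under 0.05; DESeq2 was not run on this comparison). In the Camk2a membrane libraries the lower members were Chd3, Chd5 and Chd6, which were lower there with training too, and Kmt2a. Kmt2a was not called with training in that type (-0.10 ± 0.05, adjusted p = 0.208). Chd6 lay there at 55 to 79.3 CPM (median 68.7) in mice 23 to 30 and at 66.4 to 103 CPM (median 82) in mice 1 to 22 (-0.27 ± 0.06, adjusted p = 0.00787). Kmt2a lay at 137 to 174 CPM (median 157) in mice 23 to 30 and at 154 to 208 CPM (median 177) in mice 1 to 22 (-0.22 ± 0.05, adjusted p = 0.0135). Chd5 lay at 155 to 218 CPM (median 175) in mice 23 to 30 and at 156 to 252 CPM (median 213) in mice 1 to 22 (-0.21 ± 0.05, adjusted p = 0.016). Chd3 lay at 412 to 504 CPM (median 450.3) in mice 23 to 30 and at 439.7 to 603 CPM (median 511) in mice 1 to 22 (-0.18 ± 0.05, adjusted p = 0.0232). Kat7, an acetyltransferase of the HBO1 complex, was higher, with 90.4 to 106 CPM (median 100.2) in mice 23 to 30 and 68.6 to 106 CPM (median 86) in mice 1 to 22 (0.21 ± 0.06, adjusted p = 0.032). In the pS6 cytosolic libraries Chd4 lay at 29.8 to 35.5 CPM (median 32.1) in mice 23 to 30 and at 30.8 to 49.6 CPM (median 38.4) in mice 1 to 22 (-0.26 ± 0.06, adjusted p = 0.024), Kdm5b at 27.1 to 36.7 CPM (median 30.9) in mice 23 to 30 and at 31.4 to 50.3 CPM (median 36.8) in mice 1 to 22 (-0.34 ± 0.08, adjusted p = 0.041). Chd5 lay at 51.5 to 61.2 CPM (median 56.7) in mice 23 to 30 and at 54.8 to 75.1 CPM (median 65.3) in mice 1 to 22 (-0.19 ± 0.05, adjusted p = 0.0381). All of these ranges overlapped between the runs.

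Members differed between the membrane and cytosolic fractions by up to 2.13 on the log2 scale. Here a call also needed a log2 fold change of 1 or more in size. Between membrane and cytosolic libraries of the Camk2a capture, 6 of 82 members (7.32%) were higher in the membrane and 8 (9.76%) lower, against 27.9% and 10.2% of all genes. The counts were 7 (8.54%) and 3 (3.66%) in the pS6 capture (25.3% and 9.96%) and 3 (3.66%) and 5 (6.1%) in the Input (22% and 8.97%). With relative log expression size factors or DESeq2 the splits were 9 higher and 6 lower in the Camk2a capture, 9 and 2 in the pS6 capture, and 3 and 3 in the Input.

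The members called higher in the membrane libraries of the Camk2a capture were 3 of 10 Chd remodelers, 1 of 5 Kmt2 genes, 1 of 9 Arid subunits and 1 of 11 deacetylases. Not every gene of these groups lay above 0: Kmt2e was at -0.28 ± 0.03, Arid2 at -0.43 ± 0.04 and Chd1 at -0.04 ± 0.04. Kmt2a had the largest difference, with 137 to 208 CPM (median 174) in the 30 Camk2a membrane libraries against 35 to 51.1 CPM (median 42.6) in the 30 Camk2a cytosolic ones, and no overlap (2.13 ± 0.04, adjusted p = 1.45e-52). In the pS6 capture it lay at 67.3 to 129.8 CPM (median 90.7) in the membrane and at 14.2 to 32.7 CPM (median 24.8) in the cytosolic libraries (1.96 ± 0.06, adjusted p = 1.07e-41). In the Input it lay at 62.7 to 99.3 CPM (median 85.5) in the membrane and at 24.3 to 39.7 CPM (median 32) in the cytosolic libraries (1.43 ± 0.04, adjusted p = 1.66e-41). Chd4 lay at 183 to 272 CPM (median 219) in the Camk2a membrane and at 66.8 to 95.1 CPM (median 83.2) in the Camk2a cytosolic libraries (1.51 ± 0.03, adjusted p = 1.14e-47). Chd6 lay at 55 to 103 CPM (median 78.6) in the membrane and at 22.2 to 40.4 CPM (median 29.8) in the cytosolic libraries of the same capture (1.53 ± 0.04, adjusted p = 1.08e-41). Neither gene's libraries overlapped between the fractions. Chd7, whose loss causes CHARGE syndrome in humans, had 11.9 to 23.6 CPM (median 17.2) in the Camk2a membrane and 5.29 to 11.3 CPM (median 8.07) in the Camk2a cytosolic libraries (1.25 ± 0.06, adjusted p = 3.98e-29). The X-linked class I deacetylase Hdac8 had 12.2 to 18.6 CPM (median 14.9) in the Camk2a membrane and 4.8 to 8.87 CPM (median 6.34) in the Camk2a cytosolic libraries (1.28 ± 0.05, adjusted p = 8.42e-35). For Arid1a, the main Arid subunit of BAF, the levels were 128 to 172 CPM (median 145) in the membrane and 65.1 to 92 CPM (median 77.4) in the cytosolic libraries (1.0 ± 0.03, adjusted p = 8.01e-42). In the pS6 capture Chd8, an autism risk gene in humans, was added, with 16.8 to 33.7 CPM (median 23.3) in the membrane and 8.26 to 15.8 CPM (median 11.6) in the cytosolic libraries (1.08 ± 0.06, adjusted p = 5.59e-27).

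The members called lower in the membrane libraries of the Camk2a capture were 4 of 11 deacetylases, 2 of 18 demethylases, 1 of 8 acetyltransferases and 1 of 8 Setd genes. Hdac2 lay at 53.8 to 72.2 CPM (median 62.5) in the Camk2a membrane and at 187 to 239 CPM (median 211) in the Camk2a cytosolic libraries, without overlap (-1.63 ± 0.03, adjusted p = 7e-53). Hdac3, the catalytic subunit of the NCoR and SMRT complexes, lay at 29.9 to 44.9 CPM (median 36.8) in the membrane and at 97.1 to 127 CPM (median 111) in the cytosolic libraries (-1.48 ± 0.03, adjusted p = 2.1e-49). Hdac1, the close paralog of Hdac2, lay at 13.6 to 17.7 CPM (median 15) in the membrane and at 31.3 to 45.2 CPM (median 37.7) in the cytosolic libraries (-1.20 ± 0.04, adjusted p = 3.28e-41). Class I was therefore split, with Hdac1, Hdac2 and Hdac3 on the cytosolic and Hdac8 on the membrane side. Kat2a lay at 40.6 to 63.7 CPM (median 50.1) in the membrane and at 136 to 177 CPM (median 156) in the cytosolic libraries (-1.52 ± 0.04, adjusted p = 7.84e-47). Kdm2b, a demethylase that recruits Polycomb proteins to CpG islands, lay at 6.37 to 11.5 CPM (median 9.12) in the membrane and at 15.7 to 26.5 CPM (median 21.8) in the cytosolic libraries (-1.14 ± 0.05, adjusted p = 8.27e-34). Setd3 lay at 77.3 to 93 CPM (median 85.7) in the membrane and at 185 to 215 CPM (median 200.2) in the cytosolic libraries (-1.12 ± 0.02, adjusted p = 1.06e-53). Hdac9 and Kdm7a were lower in the Camk2a membrane libraries too. Kmt2a, Chd7 and Hdac8 were higher and Hdac2, Hdac3 and Hdac9 lower in all 3 of the Camk2a, pS6 and Input pairs. Some of these lower calls sat near the fold required. Hdac3 was at -1.04 in the pS6 and -1.05 in the Input pair, and Hdac9 at -1.05 in the Camk2a and -1.07 in the Input pair. With relative log expression size factors or DESeq2, lower calls numbered 6, 2 and 3 in the Camk2a, pS6 and Input pairs. Of the 82 members, 58 had the same sign in all 3 pairs. The pairs come from the same mice, and nothing particular to the members is read from that count.

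**Figure D3:**
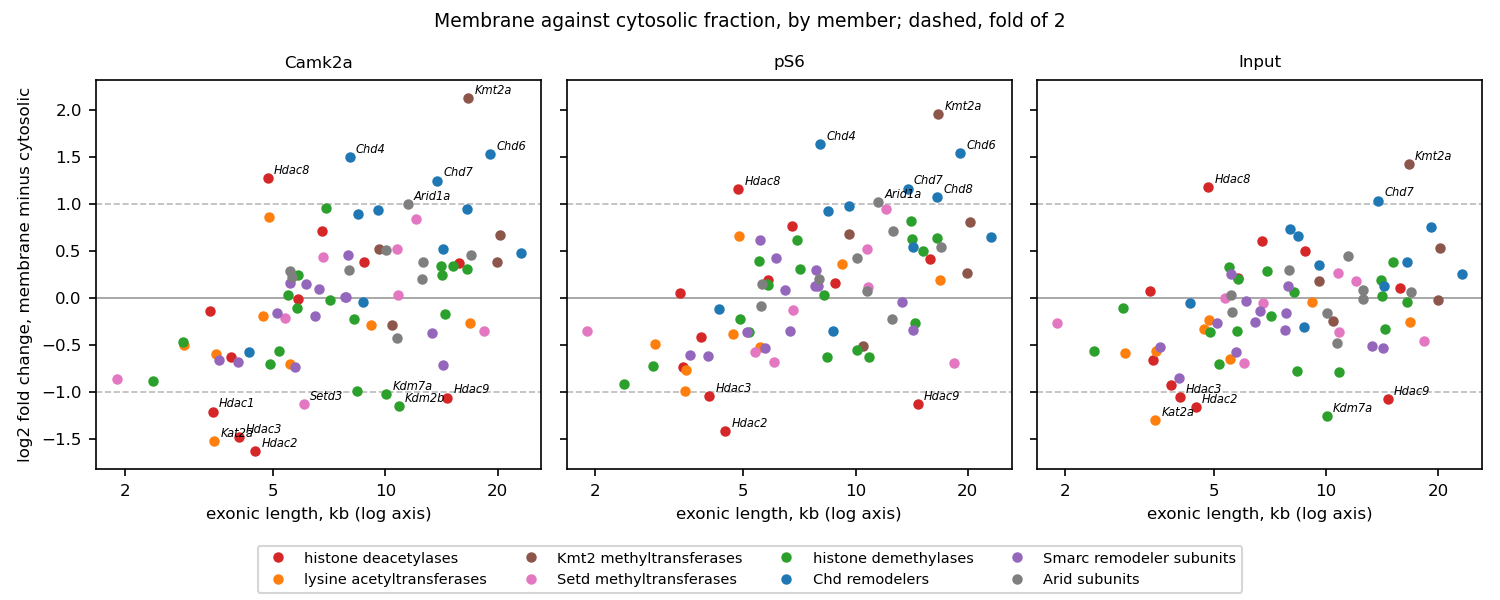
Log2 fold change, membrane minus cytosolic, in the Camk2a capture (vertical axis) against exonic length in kilobases (horizontal axis, log scale) for the 82 tested members, with the called members named. Kmt2a lies highest at 2.13 and Hdac2 lowest at -1.63, while Hdac8 lies above 0 and Kmt2e, Arid2 and Chd1 below.

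Across the 82 members, the membrane minus cytosolic difference followed exonic length. Spearman's rho across members was 0.48 in the Camk2a capture, 0.51 in the pS6 capture and 0.39 in the Input, against 0.05, 0.13 and 0.08 over 13905, 14823 and 14352 protein-coding genes. Genes of one library share its depth and base composition and are not independent replicates, so these values are descriptions. Protein-coding genes with 6.98 kb of exons or more had a median of 0.18 in the Camk2a capture, and the 45 members of that length 0.34. Astrocyte markers were higher in the membrane libraries, with a median sum of 2728 CPM in the Camk2a membrane and 273 CPM in the Camk2a cytosolic libraries, and their part in the members' differences was not tested.

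The captures were compared with each other and with the Input within a fraction. Members were mostly a little higher in the Camk2a capture than in the Input and lower in the pS6 capture than in both. In the cytosolic fraction the members' median log2 fold change was 0.20 for Camk2a over Input, -0.41 for pS6 over Input and -0.75 for pS6 over Camk2a, against -0.03, -0.04 and 0.07 over all genes. Of the 82 members, 67 were above 0 for Camk2a over Input and 65 below 0 for pS6 over Camk2a. In the membrane fraction the medians were 0.24, -0.24 and -0.46, against -0.02, -0.04 and 0.09.

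For Camk2a over Input, the cytosolic fraction had 0 higher and 2 lower members (0.371% and 16.5% of all genes), and the membrane fraction 4 and 2 (1.90% and 16.8%). The acetyltransferase Kat2b lay at 1.18 to 4.74 CPM (median 2.26) in the Camk2a cytosolic and at 7.08 to 12 CPM (median 8.87) in the Input cytosolic libraries (-2.16 ± 0.08, adjusted p = 8.27e-35). Arid5a lay at 4.38 to 8.43 CPM (median 6.63) in the Camk2a and at 10.9 to 18.4 CPM (median 12.6) in the Input cytosolic libraries (-1.13 ± 0.05, adjusted p = 5.88e-30). Neither gene's libraries overlapped. In the membrane fraction Kat2b lay at 2.01 to 6.19 CPM (median 3.78) in the Camk2a and at 4.59 to 10.2 CPM (median 7.98) in the Input libraries (-1.10 ± 0.08, adjusted p = 3.43e-21). Arid5a lay at 4.68 to 12.8 CPM (median 7.27) in the Camk2a and at 10.6 to 20.4 CPM (median 13.7) in the Input libraries (-1.03 ± 0.07, adjusted p = 5.32e-23). The higher members of the membrane fraction were Arid5b with 46.3 to 70.1 CPM (median 56.9) in the Camk2a and 17.7 to 26 CPM (median 22.7) in the Input libraries (1.26 ± 0.04, adjusted p = 1.99e-38), Chd4 with 183 to 272 CPM (median 219) in the Camk2a and 56.4 to 102 CPM (median 88.3) in the Input libraries (1.26 ± 0.05, adjusted p = 6.86e-35), Chd5 with 155 to 252 CPM (median 203) in the Camk2a and 54.8 to 103 CPM (median 87.8) in the Input libraries (1.15 ± 0.04, adjusted p = 7.8e-35), and Setd1b with 25.3 to 43.3 CPM (median 33.1) in the Camk2a and 7.6 to 19 CPM (median 15.1) in the Input libraries (1.08 ± 0.06, adjusted p = 1.71e-27). Both Chd ATPases belong to NuRD.

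For pS6 over Camk2a in the cytosolic fraction, 1 member (1.22%) was higher and 22 (26.8%) lower, against 22.3% and 8.36% of all genes. The demethylases had 9 of 18 lower members, the acetyltransferases 4 of 8, the Smarc subunits 4 of 13, the Chd remodelers 2 of 10, the Arid subunits 2 of 9, the Kmt2 genes 1 of 5, and the deacetylases and Setd genes 0. Kdm4b lay at 36.5 to 58.8 CPM (median 47.8) in the pS6 and at 117 to 182 CPM (median 138) in the Camk2a libraries, without overlap (-1.55 ± 0.04, adjusted p = 1.15e-42). Smarca4 lay at 77.3 to 132 CPM (median 98.2) in the pS6 and at 224 to 309.96 CPM (median 256) in the Camk2a libraries (-1.33 ± 0.04, adjusted p = 3.91e-41). Arid1b, an alternative to Arid1a in BAF, lay at 33.7 to 60.5 CPM (median 44.8) in the pS6 and at 87.2 to 139 CPM (median 115) in the Camk2a libraries (-1.33 ± 0.04, adjusted p = 2.82e-38). Another BAF subunit, the scaffold Smarcc2, had 89.4 to 134 CPM (median 114) in the pS6 and 225 to 313 CPM (median 285) in the Camk2a libraries (-1.28 ± 0.03, adjusted p = 7.49e-45). Kdm5b had 27.1 to 50.3 CPM (median 35.1) in the pS6 and 80.3 to 113 CPM (median 93.6) in the Camk2a libraries (-1.33 ± 0.05, adjusted p = 2.15e-35), and Kat2a 56.6 to 87.7 CPM (median 65.1) in the pS6 and 136 to 177 CPM (median 156) in the Camk2a libraries (-1.23 ± 0.03, adjusted p = 2.01e-42). The higher member was Arid5a, with 8.65 to 21.8 CPM (median 13.3) in the pS6 and 4.38 to 8.43 CPM (median 6.63) in the Camk2a libraries (1.04 ± 0.06, adjusted p = 1.64e-24). For the membrane fraction the counts were 0 and 2 (16.5% and 1.41% of all genes), Kdm4b at -1.02 ± 0.05, adjusted p = 8.53e-28 and Smarca4 at -1.0 ± 0.04, adjusted p = 5.38e-36. These sat at the edge of the fold required, and 0 were called with relative log expression size factors or DESeq2.

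Against the Input, the pS6 cytosolic libraries had 2 higher and 5 lower members (11.4% and 8.84% of all genes). Setd4, a Setd methyltransferase, had 4.94 to 9.02 CPM (median 6.34) in the pS6 and 2.1 to 4.31 CPM (median 2.97) in the Input libraries (1.03 ± 0.06, adjusted p = 1.34e-23), and Setd1a, a COMPASS methyltransferase linked to schizophrenia in humans, 8.98 to 16.1 CPM (median 13.3) in the pS6 and 5.11 to 8.36 CPM (median 6.2) in the Input libraries (1.02 ± 0.05, adjusted p = 5.61e-28). Of the lower members, Smarcc2 had 89.4 to 134 CPM (median 114) in the pS6 and 169 to 287 CPM (median 250.1) in the Input libraries (-1.17 ± 0.03, adjusted p = 2.79e-40), and its BAF partner Smarcc1 25.7 to 43.1 CPM (median 31.8) in the pS6 and 53.9 to 76.6 CPM (median 65) in the Input libraries (-1.05 ± 0.04, adjusted p = 2.29e-33). Kdm7a, which rose with sleep deprivation in both, had 26.6 to 64.2 CPM (median 42.7) in the pS6 and 60 to 131 CPM (median 84.6) in the Input libraries over all mice (-1.14 ± 0.05, adjusted p = 5.06e-28). Kat2b had 2.12 to 7.15 CPM (median 4.75) in the pS6 and 7.08 to 12 CPM (median 8.87) in the Input libraries (-1.06 ± 0.08, adjusted p = 5.59e-20). For Arid1b the levels were 33.7 to 60.5 CPM (median 44.8) in the pS6 and 60.1 to 106 CPM (median 91.6) in the Input libraries (-1.05 ± 0.04, adjusted p = 2.38e-31). Between pS6 and Input in the membrane libraries edgeR called 0 members (10.8% of all genes), with 66 at an unadjusted p under 0.05 and 0 called in DESeq2; the fit with the mouse as a block called 2 lower, Arid3b and Kdm1b at -1.02 each.

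**Figure D4:**
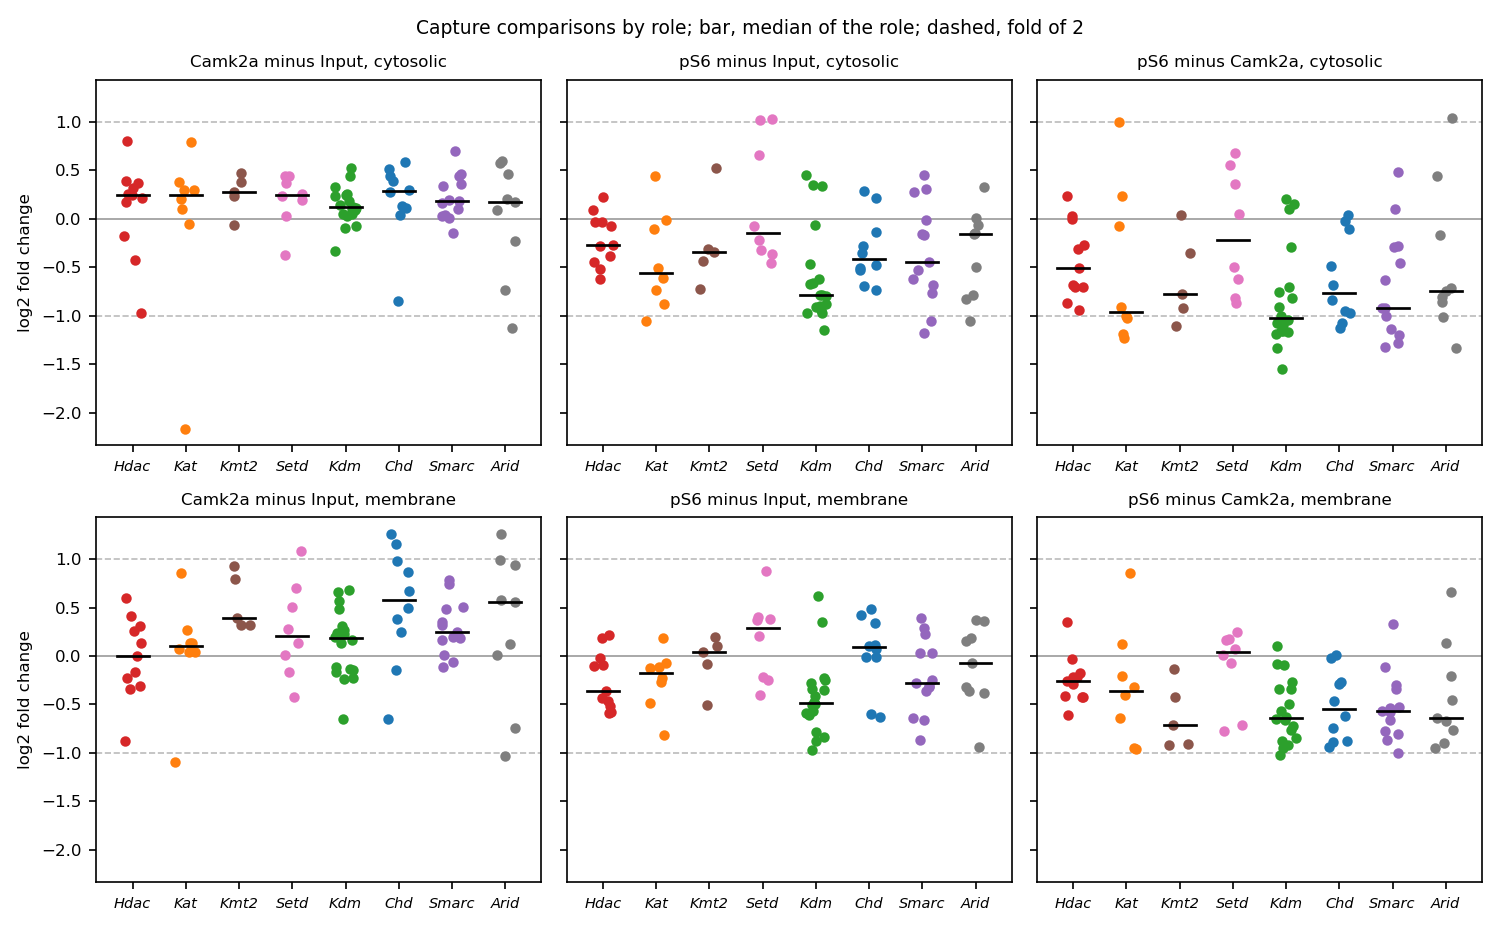
Log2 fold changes of the tested members between captures in the cytosolic and membrane fractions, by group of members (points are members, lines mark group medians). In the cytosolic fraction the medians of pS6 over Camk2a were -1.02 for demethylases and -0.96 for acetyltransferases, and -0.22 for Setd methyltransferases.

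Gene length and cell markers differed between the captures as well. For pS6 over Camk2a in the cytosolic fraction, Spearman's rho with exonic length was -0.33 across 14160 protein-coding genes, whose medians in 4 length classes of equal size, short to long, were 0.39, 0.02, -0.18 and -0.44. The 46 members in the longest class had a median of -0.83, and rho across the 82 members was -0.09. Inhibitory neuron markers summed to a median of 1555 CPM in the pS6, 736.0 CPM in the Camk2a and 1164 CPM in the Input cytosolic libraries, and excitatory markers to 9753, 11854 and 7334 CPM. The part of length and of cell mixture in the capture differences was not tested.

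Whether the sleep effect differed between fractions or captures was tested by interaction. For membrane against cytosolic libraries, 0 of 82 members were called in the Camk2a, pS6 and Input pairs in edgeR, with 4, 5 and 3 at an unadjusted p under 0.05 (0% of all genes were called), and DESeq2 called 0 as well. Between captures edgeR without the mouse as a block called 0 members too, with 1 to 7 at an unadjusted p under 0.05 in the 6 pairs. Of all genes, 0.672% were called for pS6 over Input, 0.586% for pS6 over Camk2a and 0.0122% for Camk2a over Input in the cytosolic fraction, and 0.111%, 0.0589% and 0% in the membrane fraction. The nearest was Hdac9, whose sleep effect was larger in the pS6 cytosolic libraries than in the Camk2a cytosolic ones by 0.24 ± 0.07 (adjusted p = 0.0811) and than in the Input cytosolic ones by 0.25 ± 0.07 (adjusted p = 0.05002). With the mouse as a block these differences were called, at adjusted p = 0.0167 and 0.00852, as they were in DESeq2, at 0.0398 and 0.0243. Smarcad1, a remodeler of the Snf2 family, passed with the block alone, at -0.22 in both pairs (adjusted p = 0.048 and 0.0396). The difference in the sleep effect on Smarcd2 between pS6 and Camk2a was -0.24 ± 0.12 in the membrane libraries (adjusted p = 0.999) and -0.14 ± 0.08 in the cytosolic ones (adjusted p = 0.671), and neither passed.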

How the data were processed

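Per the labels' protocols, hippocampal homogenates were separated into supernatant and pellet, ribosomes were captured with antibodies to HA or phosphorylated S6, and SMART-seq v4 kits were used to build sequencing libraries. Per the submitters' processing notes, reads were processed with STAR 2.6.1a, featureCounts (version not given) and MultiQC 1.6a0 on GRCm38.p6. The deposited table holds the authors' raw counts per gene, 12 to 27 M per library; genes with few counts are measured least precisely. Library titles gave groups and mouse numbers.

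Counts were fitted per library type, or jointly for pairs of types (60 libraries), with edgeR 4.0.16 (trimmed mean of M values, filterByExpr, robust quasi-likelihood F-test, Benjamini-Hochberg adjustment over all genes tested) in R 4.3.3. Standard errors were the log2 fold change over the root of F. Fraction and capture calls also needed a fold of 2. CPM used normalized totals over all 180 libraries, and positions and lengths GENCODE vM21. Alternatives were relative log expression size factors, no count filter, DESeq2 1.42.0, the number run as a term, the mouse as a block and, added after seeing the data, leaving out 5 libraries that stand apart. The fits were checked on simulated data. Members and lists were chosen with earlier results of these data known. Values by library were given for called members, up to 5 a direction by adjusted p for sleep, training and run, and up to 6 by fold for fraction and capture, with a mean log2 CPM of at least 1.

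Libraries of one mouse share a title number. Their deviations from group means correlated with a median of 0.107 (-0.0168 where numbers differed), and the closest library of another type carried the same number in 497 of 900 cases. The smallest chi-square per degree of freedom within a group of one library type was 2.86 over 588 pairs, so no library was a copy of another in its group. Pairs across groups or types were not compared in this way. The labels do not say more about litters or batches, so p-values measure the spread between these mice. Joint fits without the block treat the libraries of a mouse as independent, so their p-values do not take this pairing into account.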

Additional observations from a re-analysis of the deposited data

Results flagged for a closer look

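In 96 groups of 7 or 8 libraries tested for members called with sleep deprivation, 5 held a library far from the others by Dixon's criterion, near the 1 in 20 that chance gives. Arid4a had 75.4 CPM in the Camk2a cytosolic library of CFC SD mouse 29, against 64.1 CPM in the nearest library of its group. Arid5a had 16.9 CPM in the pS6 cytosolic library of CFC Sleep mouse 12. Hdac10 had 9.96 CPM in the pS6 cytosolic library of CFC Sleep mouse 16. Hdac4 had 67.9 CPM in the pS6 membrane library of NoCFC Sleep mouse 24. Smarcd2 had 29.3 CPM in the Input cytosolic library of NoCFC SD mouse 27.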

How the results depend on the processing

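Among the single members named, DESeq2 left 140 calls as they were and lost 11, omission of the count filter 136 and 23, relative log expression size factors 145 and 14, the replicate block 72 and 0, and leaving out the libraries that stand apart 38 and 8, all with unchanged direction. The number run as a term left 24 training and sleep calls, lost 45 and turned the sign of 10, all for training: Chd2 0.0316, Kdm5b 0.0324, Kdm6b 0.10 and Setd1b 0.0355 in the Camk2a membrane, Arid5b 0.00661, Chd2 0.0732, Chd9 0.0381, Hdac5 0.0244 and Kdm5c 0.00615 in the pS6 membrane, and Chd7 0.13 in the Input membrane libraries. That term leaves the training contrast to mice 23 to 30, so fewer mice and the run itself cannot be told apart here. With that term, training counts of members were 0 in place of 19, 26 and 10 in the Camk2a, pS6 and Input membrane libraries. Over all genes the counts with that term were 1, 12 and 0. DESeq2 called 5 members in place of 3 with sleep deprivation in the Camk2a membrane libraries, and 1 in place of 0 with training in the Camk2a and Input cytosolic libraries (Kdm2b and Arid5b, both higher). For mice 23 to 30 against mice 1 to 22, the pS6 cytosolic count was 1 in place of 3 without the filter, and the Input membrane count 1 in place of 0 without the libraries that stand apart (Arid1a, lower). Counts of pS6 over Camk2a in the membrane fraction were 0 with relative log expression size factors, 1 without the filter and 0 with DESeq2, in place of 2. With the replicate block (the mouse, paired by title number), the sleep by capture counts were 2 for both pS6 over Input and pS6 over Camk2a in the cytosolic fraction, and 1 in each with DESeq2, in place of 0; pS6 over Input in the membrane fraction gave 2 in place of 0. The replicate block changed no other count by over 1.5 times and lost no single call. The causes were not tested. No replicate was left out singly, since each group held 7 or more mice. Depth limited members with few counts, and 5 members could not be tested.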

Other observations

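Chromatin genes outside the naming pattern were sirtuins, Polycomb, SET and bromodomain proteins and other complex subunits, with 152 to 156 tested per type. With sleep deprivation, 9 were higher and 1 lower in the Camk2a cytosolic libraries (4.13% and 2.15% of all genes). The counts were 2 and 1 in the Camk2a membrane (2.16% and 0.802%), 6 and 6 in the pS6 cytosolic (4.60% and 3.28%) and 1 and 3 in the pS6 membrane libraries (1.11% and 0.619%). They were 3 and 0 in the Input cytosolic (2.04% and 1.13%) and 2 and 0 in the Input membrane libraries (1.05% and 0.320%). Nothing particular to these genes is read from these counts. Kmt5a, which places a single methyl group on histone H4 lysine 20, was called higher in all 6 types, at log2 fold changes of 0.15 to 0.22, as were Hdac4 and Kdm7a among the members. With training, 2 of these other genes were higher and 17 lower in the Camk2a membrane libraries (9.81% and 7.17% of all genes). The counts were 3 and 36 in the pS6 membrane (8.10% and 8.75%) and 1 and 20 in the Input membrane libraries (3.63% and 2.90%). Training is bound to the number run here as for the members. For pS6 over Camk2a in the cytosolic fraction, 4 were higher and 41 lower (22.3% and 8.36% of all genes). These counts come from the same libraries as those of the members.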
